A study of Mus musculus with 28 samples.

Results

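Interleukin-4 (IL-4) was added to activated CD4+ T cells labelled KO (of Tgfbr1, the gene of TGF-β receptor I, in the study). Their RNA was compared with that of KO cells in control medium. The comparison rested on 6 RNA-seq libraries, 3 of KO IL-4 cells and 3 of KO control cells, out of 24 RNA-seq libraries and 28 libraries in all. Naïve CD4+ T cells came from the spleen and lymph nodes of adult mice. The study describes Tgfbr1 f/f Ert2-cre+ mice given tamoxifen to delete Tgfbr1 (KO) or oil (WT). It also lists Tgfbr1 f/f Cd4-cre+ mice and does not name the mice used for RNA-seq. The RNA-seq titles say only KO or WT, while the DNase-seq titles name tamoxifen and oil. Every culture received plate-bound anti-CD3 and soluble anti-CD28, and then control medium, 1 of the cytokines TGF-β and IL-4, or both (TGF-β + IL-4). The labels number the KO libraries of each culture from 1 to 3 and do not say whether a number stands for 1 mouse across cultures. Ert2-cre is not limited to T cells. If the RNA-seq mice carried it, other cells of the KO mice had met the same deletion before the T cells were isolated.

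The columns of the deposited table had to be assigned with care, because the KO order in it is not proven. The table holds 24 value columns, and the read counts released with the study allowed 8 WT libraries to be matched to a column by the genes at 0. All 8 matched the column expected when libraries are placed in the order of their library numbers, and 6 of the 8 stood under the heading of another library. No KO library could be matched in this way. The KO columns were therefore read by the same order, which made value columns 13, 17 and 21 KO control and value columns 15, 19 and 23 KO IL-4, replicates 1, 2 and 3 in each case. The headings of only 2 of these 6 columns name the same culture. Every statement below about KO cells holds only if this inferred order is right, and with the columns read by their headings limma called 0 of 9640 genes, with 1298 at an unadjusted p under 0.05.

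IL-4 binds a receptor made of the IL-4Rα chain and, on T cells, the common γ chain. The receptor activates the kinases JAK1 and JAK3 and the transcription factor STAT6, which raises GATA3, the master regulator of Th2 cells. STAT6 dimers prefer a palindrome with a spacer of 4 bases, written here as TTCNNNNGAA, whereas STAT5 and most other STATs prefer TTCNNNGAA. TGF-β works through another route, in which TGF-β receptor I phosphorylates SMAD2 and SMAD3, and together with IL-4 it turns CD4+ T cells into IL-9-producing Th9 cells.

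Some sequences with these palindromes are shown first, because 5 of the 15 genes with the largest rises under IL-4 had TTCNNNNGAA within the window from 250 bases before to 50 after a RefSeq start (13 of the 15 had a window). They are given 5′ to 3′ on the strand of the gene, from RefSeq promoters on GRCm38.p6, with TTCNNNNGAA in capitals and 25 bases on each side.
Ralgds (chr2:28533248-28533307, + strand, 191 bases upstream of the start): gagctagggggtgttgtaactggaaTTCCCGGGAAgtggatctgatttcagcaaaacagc
Pros1 (chr16:62854060-62854119, + strand, 222 bases upstream): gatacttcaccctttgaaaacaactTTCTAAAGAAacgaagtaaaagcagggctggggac
Ccl17 (chr8:94810274-94810333, + strand, 154 bases upstream): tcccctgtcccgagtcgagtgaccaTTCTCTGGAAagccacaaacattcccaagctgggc
Timd2 (chr11:46698913-46698972, − strand, 117 bases upstream): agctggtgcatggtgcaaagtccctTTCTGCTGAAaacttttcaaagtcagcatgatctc
Hemk1 (chr9:107338453-107338512, − strand, 137 bases upstream): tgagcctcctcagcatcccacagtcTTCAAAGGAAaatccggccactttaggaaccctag

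The windows of Pros1 and Ccl17 also held the shorter TTCNNNGAA, 92 and 99 bases upstream of the start. Cish, which encodes a SOCS family protein that is a classical target of STAT5, carried only the shorter spacing. Its window had 2 matches to TTCNNNGAA that follow each other at the start site, and the first of them is in capitals here.
Cish (chr9:107296634-107296692, + strand, at the start): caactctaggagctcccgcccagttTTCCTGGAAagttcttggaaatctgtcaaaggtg

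Both motifs are their own reverse complement, so 1 search covers both strands. Of the promoter windows of genes called higher under IL-4, 11.9% (17 of 143 windows, from 108 of 144 genes with an entry) held TTCNNNNGAA. The same motif was in 5.06% of the windows of genes called lower, in 5.5% of those of tested genes and in 6.95% of all 32851 windows. The shares for TTCNNNGAA were 7.69% for genes called higher and 7.59% for genes called lower, beside 7.1% of tested and 8.3% of all windows. These shares describe letters in a window and were not tested.

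Open chromatin was available for KO control and for KO TGF-β + IL-4 cells, not for KO cells with IL-4 alone, with 1 DNase-seq library each and no replicate. Within 20 kb of the starts of the 15 genes with the largest rises, the KO TGF-β + IL-4 list held 43 DNase I hypersensitive sites (DHSs), of which 14 overlapped no DHS of the KO control list. TTCNNNNGAA lay within 50 bases of the summit in 2 of these 14, near Pros1 and near Fam198a. No share of other DHSs with the motif is given here, so these 2 are examples only. The 101 bases around each summit are printed on the + strand of mm9, with both palindromes in capitals.
Pros1 DHS (chr16:62853476-62853576, summit 607 bases upstream of the start, fold enrichment 6.23): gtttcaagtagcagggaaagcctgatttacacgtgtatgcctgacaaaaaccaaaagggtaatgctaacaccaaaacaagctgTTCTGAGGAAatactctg
Fam198a DHS (chr9:121871117-121871217, summit 11063 bases downstream of the start, fold enrichment 5.18): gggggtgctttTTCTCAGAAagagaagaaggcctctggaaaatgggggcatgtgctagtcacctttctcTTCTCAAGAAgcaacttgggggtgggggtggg
In the whole KO TGF-β + IL-4 list 11.6% of 27145 DHSs were absent from the KO control list. Near called genes the DHSs were again counted gene by gene, so those shares are not of distinct DHSs. The share was 18.2% of 374 such counts within 20 kb of genes called higher, and 10.7% of 225 near genes called lower. In the other direction, 29.3% of 33665 KO control DHSs were absent from the KO TGF-β + IL-4 list. That share was 25.7% of 408 such counts near genes called higher and 25.5% of 267 near genes called lower. With a single library per culture these shares have no error.

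The targeted gene was looked at first. Tgfbr1, which spans chr4:47366094-47427803 in mm9, had 2.32, 2.55 and 3.05 RPKM (read numbers divided by gene length and by library size) in KO control and 2.92, 3.75 and 3.17 RPKM in KO IL-4. WT control cells had 3.02, 3.25 and 3.31 RPKM, so KO and WT control columns overlapped. An RPKM over a whole gene does not show the loss of a floxed part, and the sources used here do not give that part, so this value does not check the deletion. The response to TGF-β did separate the genotypes when the columns were read by position. Between TGF-β and control, limma called 1 gene in KO (0.0105% of 9563) and 555 in WT (5.71% of 9726).

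That 1 gene was Foxp3, the regulator of Treg cells, with 4.76, 3.95 and 3.92 RPKM in KO TGF-β cells against 1.46, 1.36 and 1.48 RPKM in KO control. In WT cells Foxp3 was between 57.6 and 73.4 RPKM under TGF-β and between 5.23 and 6.12 RPKM in control. The KO columns thus had a smaller rise of Foxp3, of 1.09 ± 0.09 (log2, SE, limma adjusted p = 0.00892), beside 3.28 ± 0.10 in WT. Ccr8, a chemokine receptor, was not called in KO (1.01 ± 0.10, limma adjusted p = 0.0214), but its columns did not overlap, with between 6.14 and 7.84 RPKM in control and between 13.4 and 16.2 RPKM with TGF-β.

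IL-4 changed a defined set of genes in KO cells. Among 9600 genes with a mean of at least 1 RPKM, 144 were higher and 97 lower with IL-4, at a change of more than 1.5-fold with a limma adjusted p under 0.01, which is 2.51% of the genes tested (1.5% higher, 1.01% lower). The median log2 fold change was 0.91 for the genes called higher and −0.75 for those called lower, beside 0.01 over all tested genes. All log2 fold changes here are of RPKM + 1, which understates changes of genes with low RPKM. On this scale Gata3 and the growth factor gene Csf1 led the rises, and Nrn1, which encodes neuritin, led the falls. In bulk RNA a change in the share of cells and a change in RNA per cell cannot be told apart. Leaving out each replicate number or each library gave between 89 and 153 genes called higher and between 32 and 123 called lower, and both lowest counts came without replicate 1.

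**Figure D1:**
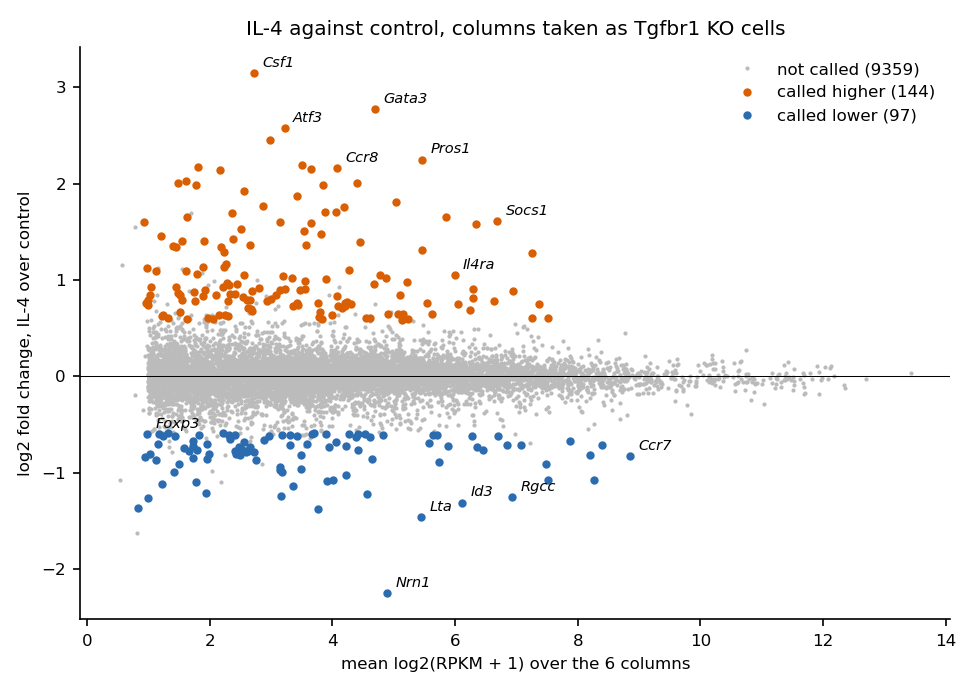
Each point is a gene, with its mean log2(RPKM + 1) over the 6 columns on the x axis and its log2 fold change with IL-4 on the y axis. The 144 genes called higher reach 3.15 (Csf1), and the 97 called lower reach −2.25 (Nrn1).

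Gata3 (chr2:9778705-9811661, − strand, mm9) had 8.51, 8.65 and 9.58 RPKM in the 3 KO control columns and 58.8, 71.0 and 71.4 RPKM in the KO IL-4 columns. All 3 IL-4 columns were above all 3 control columns, with means of 67.1 ± 7.17 and 8.91 ± 0.583 RPKM (SD, n = 3). The log2 fold change was 2.78 ± 0.09 (SE, limma adjusted p = 1.11e-06).

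The receptor for the cytokine itself moved in the same direction. Il4ra (chr7:132695785-132722986, + strand, mm9), which encodes the IL-4Rα chain, had 41.8, 42.4 and 45.6 RPKM in control and 86.4, 94.1 and 91.9 RPKM with IL-4, and the groups did not overlap. The change was 1.05 ± 0.06 (log2, SE, limma adjusted p = 9.05e-06). Stat6 had 65.8, 71.2 and 63.4 RPKM in control and 56.3, 60.6 and 65.1 RPKM with IL-4. These groups overlapped, and the difference of −0.14 ± 0.07 did not pass (limma adjusted p = 0.323).

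The common γ chain and the JAK kinases did not pass the test either. Il2rg, which encodes the common γ chain, was between 461 and 558 RPKM in control and between 345 and 418 RPKM with IL-4, a log2 difference of −0.40 ± 0.09 (limma adjusted p = 0.031). Jak1 and Jak3 had overlapping groups and log2 differences of −0.06 and 0.07. In all, 4 of 14 tested genes of IL-4 receptor and signalling were called, all higher, with a median log2 fold change of 0.03. Beside Il4ra these were Socs1, Stat5a and Stat5b.

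Socs1, an inhibitor of JAK kinases that cytokines induce as a feedback, had 58.0, 60.7 and 55.4 RPKM in control. With IL-4 it had 183, 185 and 172 RPKM, without overlap, a log2 fold change of 1.61 ± 0.06 (limma adjusted p = 1.32e-06). The SOCS family did not move as 1 block. Cish also rose, from between 37.3 and 51.3 RPKM to between 127 and 160 RPKM (log2 1.58 ± 0.13), Socs2 fell by 0.79 on the log2 scale, and the other 5 members tested did not pass.

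Csf1, which encodes macrophage colony-stimulating factor, had the largest rise of all genes called on the scale of log2(RPKM + 1). It had 1.15, 1.55 and 0.999 RPKM in control and 17.2, 19.9 and 19.1 RPKM with IL-4, with no overlap. The log2 fold change was 3.15 ± 0.11 (limma adjusted p = 1.11e-06). By the ratio of mean RPKM Csf1 rose 15.2-fold, and Edn1, a called gene of low level, rose 24.9-fold, from 0.0936 to 2.33 RPKM. Edn1 reached the mean of 1 RPKM only through its IL-4 columns, and its ratio rests on control values near 0, so its size is uncertain.

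**Figure D2:**
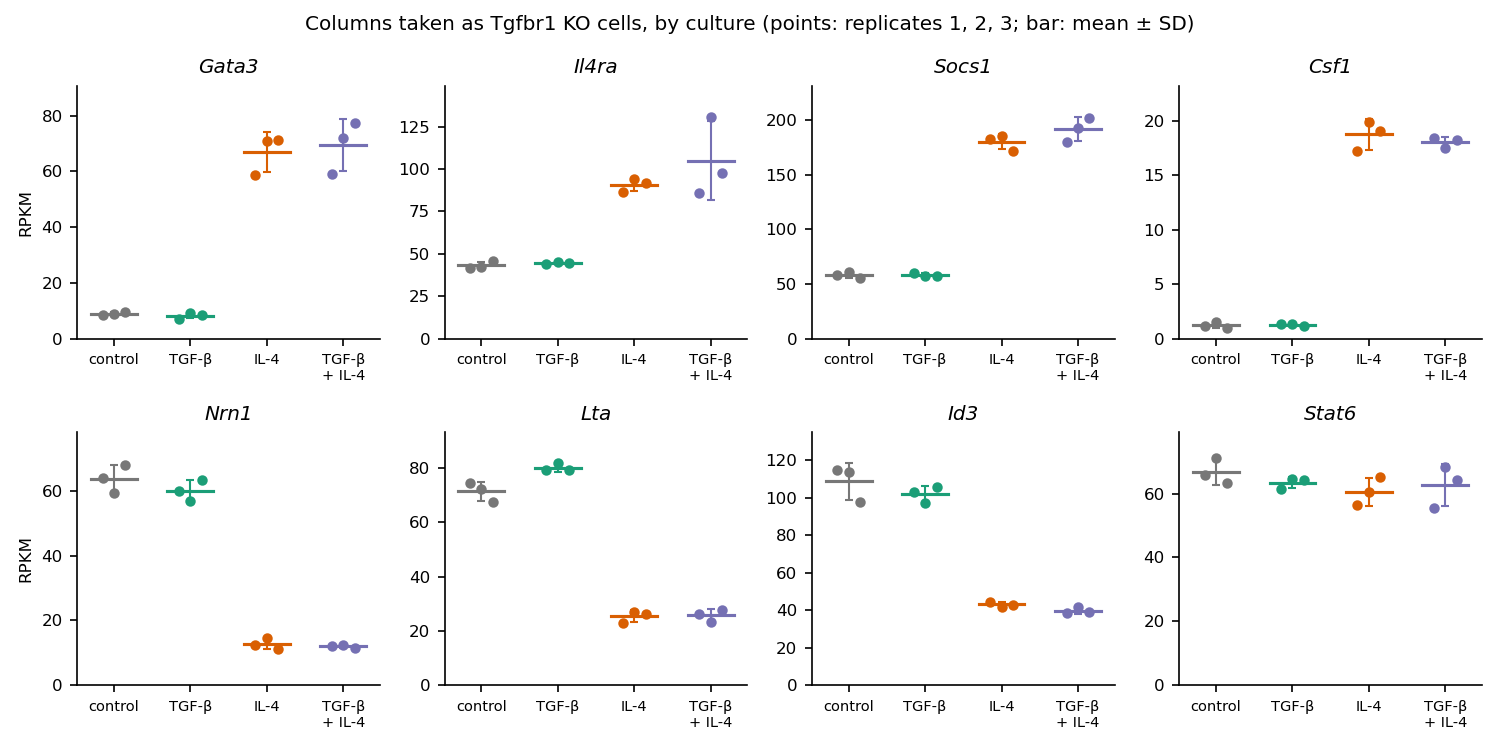
Each panel shows 1 gene in RPKM in the 12 columns taken as KO cells, 3 replicates per culture, with the mean and SD as bars. For Gata3, Il4ra, Socs1 and Csf1 both cultures with IL-4 lie above both without it, for Nrn1, Lta and Id3 they lie below, and for Stat6 the cultures overlap.

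Many genes of a list of the IL-4 and STAT6 program of T cells rose. The list was chosen with earlier results of these data known, so its counts are a description only. Of its 24 genes 17 were tested, and 10 were higher and 1 lower. The median log2 fold change was 1.05 beside 0.01 over all genes. Next to Gata3, Il4ra, Socs1 and Cish, the higher genes were Gfi1, Nfil3, Ccr4, Ccr8, Satb1 and Batf, and the lower gene was Socs2.

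Among these, 2 chemokine receptors of Th2 cells stood out by size. Ccr8 went from 6.14, 7.84 and 6.94 RPKM in control to 30.6, 37.0 and 36.6 RPKM with IL-4 (log2 2.16 ± 0.10). Ccr4 went from 4.32, 4.36 and 5.17 RPKM to 19.5, 20.2 and 19 RPKM (log2 1.87 ± 0.08). For both genes every IL-4 column was above every control column. Ccl17, a ligand of CCR4, was at 0.548, 0.401 and 1.04 RPKM in control and at 3.78, 8.39 and 8.11 RPKM with IL-4, and its call was among 17 of 63 named calls lost when genes of low RPKM were kept in the fit.

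Beside Gata3, 4 other regulators of the list rose. Nfil3, a basic leucine zipper factor, rose by 1.70 ± 0.08 on the log2 scale, from between 6.62 and 7.81 RPKM to between 23.7 and 27.2 RPKM. Satb1, a chromatin organizer linked to Th2 cytokine genes, rose by 1.48 ± 0.07. Gfi1, a zinc-finger repressor that favours Th2 cell growth, rose by 1.29 ± 0.13, and the AP-1 partner Batf by 0.91 ± 0.06, from between 52.1 and 59.7 RPKM to between 104 and 107 RPKM.

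Th2 cytokines themselves were hardly measured. None of the 7 in the list reached a mean of 1 RPKM in the 6 columns, so none was tested. Il4 had 0.695, 0.0677 and 0.762 RPKM in control and 0.766, 0.488 and 0.819 RPKM with IL-4, and the groups overlapped. Il13 was between 0.0739 and 0.233 RPKM in control and between 0.238 and 0.661 RPKM with IL-4. Gata3 thus rose in cells in which Il4, Il5 and Il13 stayed below 1 RPKM in each of the 6 columns.

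Th9 genes were described separately, since the study was about them. Il9 had 0.583, 0.275 and 0.25 RPKM in control and 0.836, 0.887 and 0.893 RPKM with IL-4, which was too low for the test. Of 9 Th9 genes tested, 3 were higher, namely Batf, Batf3 and Stat5a, and none was lower, with a median log2 fold change of 0.36. Batf3, a close relative of Batf, went from 2.37, 1.78 and 2.0 RPKM to 10.6, 9.75 and 11.3 RPKM (log2 1.92 ± 0.10).

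Stat5a, Dbp and E2f8 are transcription factors the study followed in Th9 cells. Stat5a, which cytokine receptors activate, was at 76.7, 74.2 and 74.8 RPKM in control and at 133, 116 and 142 RPKM with IL-4. Its log2 fold change was 0.78 ± 0.08 (limma adjusted p = 0.000296), and the call was lost without replicate 1. Dbp, a clock output factor, was between 2.38 and 3.05 RPKM in control and between 2.44 and 3.76 RPKM with IL-4, with overlap and an adjusted p of 0.388 by limma. E2f8, an atypical E2F repressor, had a log2 difference of 0.16 ± 0.08 (limma adjusted p = 0.275), although its IL-4 columns were all above its control columns.

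**Figure D3:**
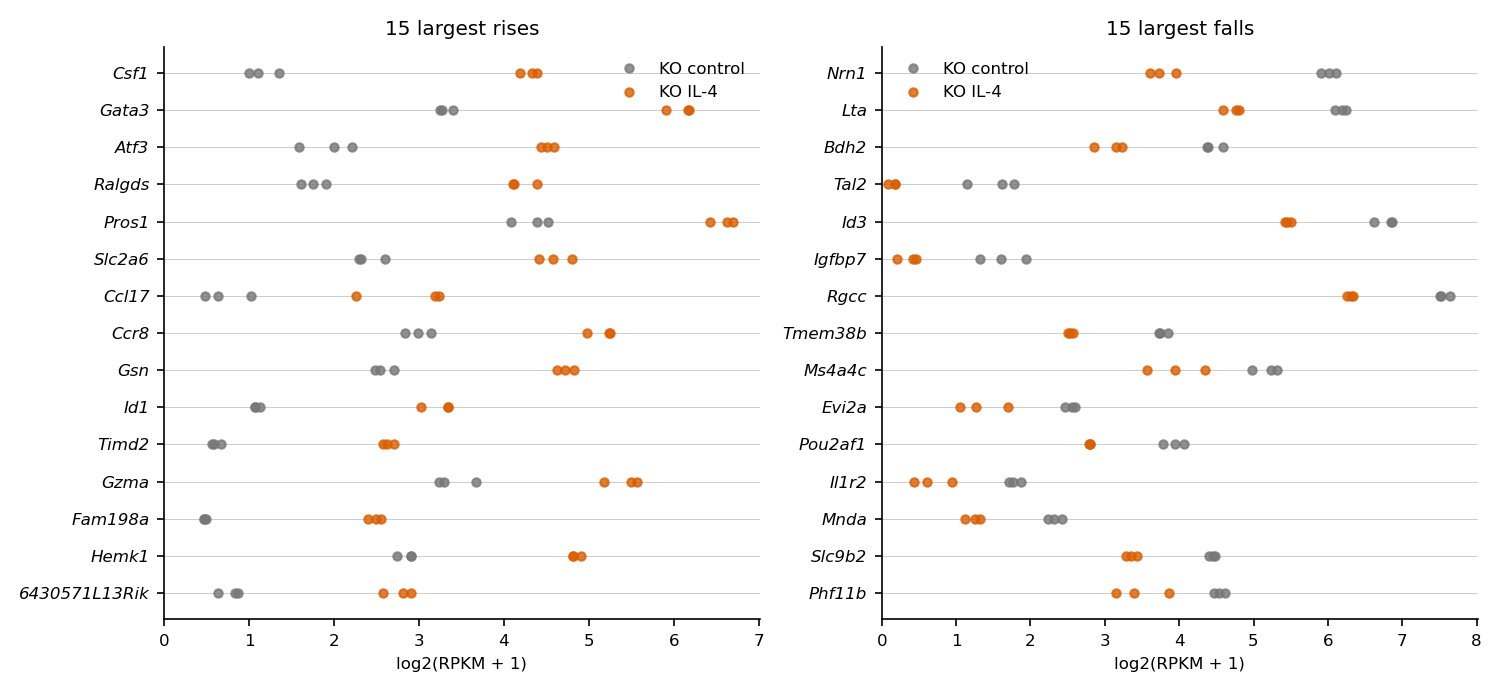
The 15 largest rises and the 15 largest falls among the called genes are shown as log2(RPKM + 1) in each of the 3 KO control and 3 KO IL-4 columns. No gene has overlapping groups.

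The other genes with the largest rises came from many functions. Atf3, a stress-induced repressor, went from 3.62, 2.99 and 2.01 RPKM to 23, 20.6 and 21.8 RPKM (log2 2.58 ± 0.14). Ralgds, an exchange factor for Ral GTPases, rose by 2.45 ± 0.11, and Slc2a6, a hexose transporter, by 2.19 ± 0.12 on the same scale. Pros1, which encodes the anticoagulant protein S and whose promoter stretch and upstream DHS are shown above, went from 16, 20.0 and 22 RPKM to 85.1, 103 and 97.8 RPKM (log2 2.25 ± 0.11). Gsn, the actin-severing protein gelsolin, rose from between 4.57 and 5.53 RPKM to between 23.6 and 27.4 RPKM. Timd2, a TIM family receptor, had 0.476, 0.504 and 0.594 RPKM in control and 5.15, 5.51 and 4.98 RPKM with IL-4. Fam198a was at 0.406, 0.384 and 0.382 RPKM in control and at 4.89, 4.29 and 4.62 RPKM with IL-4.

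Of the 15 largest rises, 2 lay side by side with Cish on chromosome 9. Hemk1 (chr9:107230023-107240681, − strand, mm9), which encodes a mitochondrial methyltransferase, had 5.67, 6.49 and 6.5 RPKM in control and 27.2, 27.0 and 28.9 RPKM with IL-4. The neighbouring 6430571L13Rik (chr9:107242933-107254753, + strand) went from 0.551, 0.83 and 0.786 RPKM to 6.52, 4.98 and 6.0 RPKM. Cish, Hemk1 and 6430571L13Rik span 56.4 kb together, and the stretch was looked at after their values were seen. Within 100 kb on either side the table had 3 more genes, of which Mapkapk3 was tested and not called (log2 0.35 ± 0.07, limma adjusted p = 0.0136), and Dock3 and Cacna2d2 were too low.

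Cytotoxic and Th1 genes gave a mixed picture. Gzma, the protease granzyme A, had 8.83, 8.45 and 11.7 RPKM in control and 35.1, 46.3 and 44.3 RPKM with IL-4 (log2 2.01 ± 0.13). Gzmb, granzyme B, was higher in every IL-4 column, at between 145 and 155 RPKM against between 94.1 and 115 RPKM, but its change of 0.55 stayed under the fold threshold. Ifng, the Th1 cytokine, was between 9.01 and 15.5 RPKM in control and between 19.8 and 27.1 RPKM with IL-4, a log2 difference of 0.93 ± 0.17 that did not pass (limma adjusted p = 0.0116). Of 12 Th1 genes tested, Ccl5 was lower and the other 11 were not called. Tbx21, the Th1 regulator T-bet, had a log2 difference of 0.30 ± 0.08 (limma adjusted p = 0.0652).

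Of 5 tested markers of CD8 and NK cells 1 was called, Cd8b1, which encodes the CD8 β chain. The summed level over 7 such genes was between 22.2 and 23.5 RPKM in control and between 34.5 and 36.3 RPKM with IL-4, mostly from Cd8b1, which had 15.4, 13.6 and 13.9 RPKM in control and 24.5, 24.6 and 24.8 RPKM with IL-4. Cd8a was between 1.14 and 1.32 RPKM in control and between 1.59 and 2.62 RPKM with IL-4. The part of these cells in the rise of Gzma was not tested.

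The falls were led by Nrn1 (chr13:36817494-36826346, − strand, mm9). Nrn1 encodes neuritin, a small membrane-anchored protein made by some T cells. It had 63.9, 59.2 and 68.0 RPKM in control and 12.3, 14.5 and 11.2 RPKM with IL-4, a log2 fold change of −2.25 ± 0.09 (limma adjusted p = 2.24e-06). Every IL-4 column was far below every control column, and the mean went from 63.7 ± 4.44 to 12.6 ± 1.68 RPKM (SD, n = 3).

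Lta, the cytokine lymphotoxin α, had 74.5, 72.3 and 67.6 RPKM in control and 23, 27 and 26.2 RPKM with IL-4, and fell by 1.46 on the log2 scale. Tnf, its neighbour and relative, fell by 0.59, from between 13.4 and 17.8 RPKM to between 9.04 and 10.0 RPKM, and passed narrowly (limma adjusted p = 0.00985). Csf2, which encodes GM-CSF, was in the same list of 12 activation cytokines and rose by 0.63, and with Gzma the list had 2 genes higher and 2 lower.

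A group of chemokine ligands was lower. Ccl4 had 442, 390 and 341 RPKM in control and 222, 216 and 224 RPKM with IL-4 (log2 −0.81 ± 0.09), and Ccl3 was between 65.6 and 84.2 RPKM in control and between 40.7 and 51.6 RPKM with IL-4. Xcl1, the ligand of XCR1 on dendritic cells, had 261, 216 and 257 RPKM in control and 133, 115 and 143 RPKM with IL-4. Together with Ccl5, 4 of 8 ligands tested were lower and 1, Ccl17, was higher, with a median log2 fold change of −0.45. The Ccl3 and Ccl4 transcripts are close relatives. Reads that fit both equally may have been among the low-quality reads that the authors dropped, and the effect of this was not tested.

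The inhibitors of DNA binding Id1 and Id3 went in opposite directions. Id1 had 1.1, 1.1 and 1.19 RPKM in control and 7.15, 9.17 and 9.18 RPKM with IL-4 (log2 2.15 ± 0.10). Id3 had 115, 114 and 97.6 RPKM in control and 44.5, 41.9 and 42.9 RPKM with IL-4 (log2 −1.31 ± 0.07). They were the 2 called genes among 13 TGF-β receptors, Smads and targets tested, a list with a median log2 fold change of −0.02.

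Of 7 Treg genes tested 2 fell, Foxp3 and Ctla4. Foxp3 had 1.46, 1.36 and 1.48 RPKM in control and 0.68, 0.612 and 0.542 RPKM with IL-4 (log2 −0.60 ± 0.09, limma adjusted p = 0.00349). Ctla4, an inhibitory receptor of Treg and activated cells, was between 13.5 and 15.2 RPKM in control and between 6.94 and 9.99 RPKM with IL-4 (log2 −0.70 ± 0.11).

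Of 13 naïve and homing genes tested 2 were lower, Ccr7 and Cd27, 1 was higher, Satb1, and 10 were not called, with a median log2 fold change of −0.04. Ccr7, the lymph node homing receptor, had 576, 599 and 671 RPKM in control and 324, 335 and 379 RPKM with IL-4 (log2 −0.83 ± 0.08). Cd27 fell by 0.61 on the log2 scale. Replicate 2 stood apart in the IL-4 columns for a gene of this list that was not called, Il7r, at 7.42 RPKM against 3.21 and 2.86 RPKM in replicates 1 and 3. Cd28, the co-stimulatory receptor, had 66.6, 67.4 and 81.5 RPKM in control and 36.0, 41.0 and 37.6 RPKM with IL-4, and Cd5, an inhibitor of receptor signalling, had 443, 434 and 415 RPKM in control and 262, 249 and 275 RPKM with IL-4.

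Cd28 and Cd5 were 2 of 8 tested markers of CD4 T cells, and no marker of the list was higher. Cd4 itself was between 111 and 122 RPKM in control and between 94.4 and 101 RPKM with IL-4 (log2 −0.26 ± 0.06, not called), so the labelled cell type was present in all 6 columns. Among inhibitory receptors Tigit rose by 1.40 ± 0.09, from between 11.5 and 13.8 RPKM to between 32.0 and 38.1 RPKM, and Lag3 by 0.75 ± 0.07, whereas Cd200 fell by 0.62.

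Markers of other cells were low. B cell markers summed to between 10.3 and 11.6 RPKM in control and to between 12.9 and 14.7 RPKM with IL-4, of which Cd79b was called (log2 0.78 ± 0.12) while Cd79a was not. Myeloid markers summed to between 2.87 and 20.0 RPKM in control and to between 6.52 and 16.4 RPKM with IL-4, with 0 of 4 called by limma (1 at an unadjusted p under 0.05), and erythroid markers stayed at or below 0.314 RPKM in sum. The part of B cells in the other changes was not tested.

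**Figure D4:**
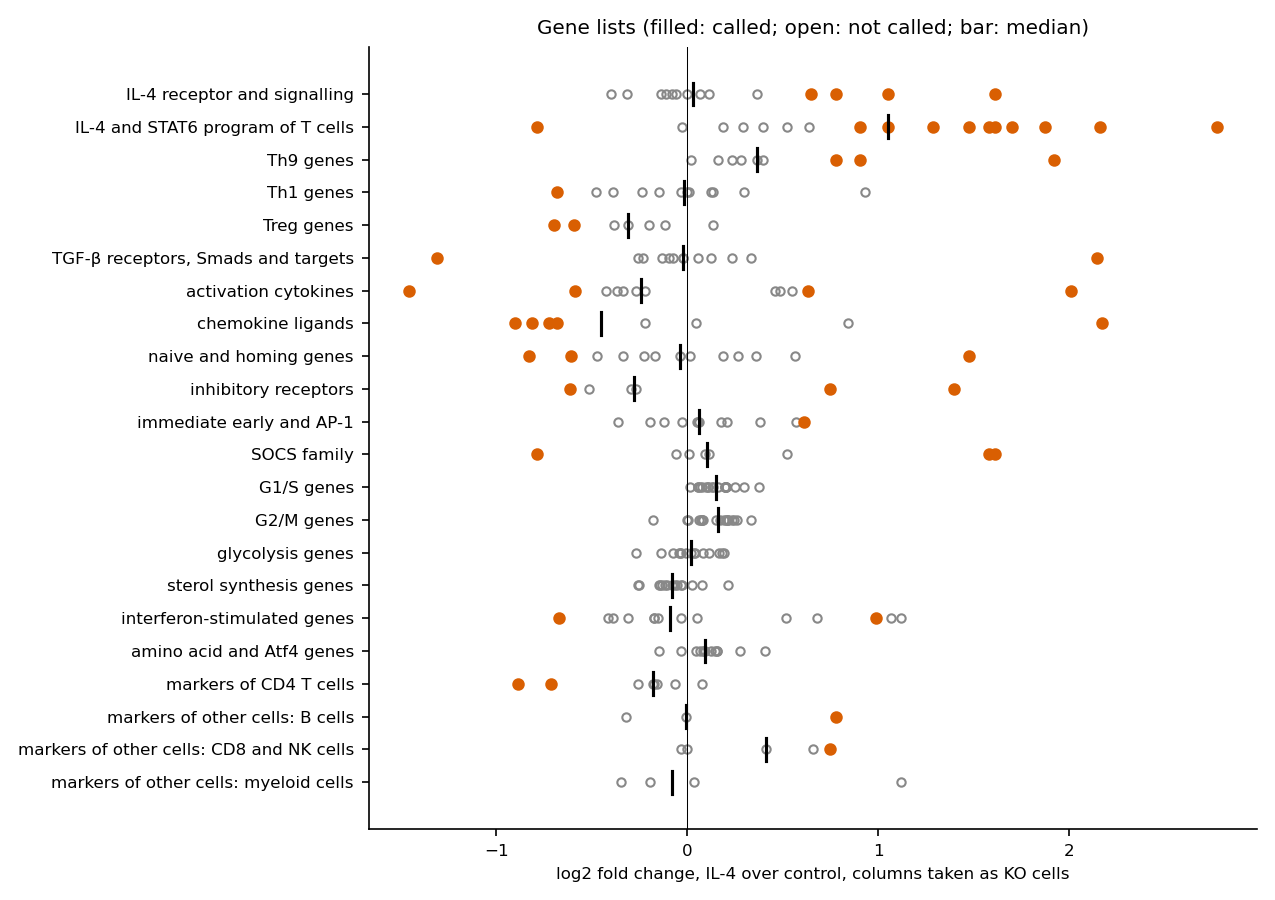
Each row is a gene list and each point a tested gene, with its log2 fold change with IL-4 on the x axis. Filled points are called and the bar is the median, which is 1.05 for the IL-4 and STAT6 program and between −0.45 and 0.42 for the other lists with more than 1 tested gene. The lists were chosen with earlier results of these data known.

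The machinery of growth showed no called gene. The lists held 20 G1/S, 20 G2/M, 15 glycolysis, 15 sterol synthesis and 13 amino acid and Atf4 genes that were tested. Of these, 0 of 83 passed in limma and 26 had an unadjusted p under 0.05, beside 1981 of all 9600 genes tested. Medians were between −0.08 and 0.16 on the log2 scale. The 20 G1/S genes all had small positive changes, between 0.01 and 0.37, with 7 at such a p. The 20 G2/M genes lay between −0.18 and 0.33, with a median of 0.16 and 10 at such a p. Jund was the 1 called gene of 12 immediate early and AP-1 genes, rising by 0.61. Of 14 interferon-stimulated genes Usp18 rose by 0.99 and Gbp2 fell by 0.67. Over all genes tested 2.51% were called, so 1 or 2 called genes in lists this short, here and above, say little about a list. No list was tested as a set.

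Of 63 called genes named by the rule, 42 kept their call without each replicate number and each library in which they were tested, among them all 15 of the largest rises. The other 21 lost it at least once, among them Igfbp7, Ms4a4c, Evi2a, Il1r2 and Phf11b of the largest falls, and Stat5a, Socs2, Ccl5, Foxp3, Ctla4, Csf2, Tnf, Ccl3, Xcl1, Cd27, Cd200, Jund, Usp18, Gbp2 and Cd79b.

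The remaining large falls were of genes with varied roles. Bdh2, a cytosolic dehydrogenase, went from 23.1, 19.9 and 19.7 RPKM to 6.22, 7.91 and 8.37 RPKM (log2 −1.37 ± 0.11). Rgcc, a regulator of the cell cycle, was abundant and went from 182, 198 and 181 RPKM to 75.3, 78.3 and 79.8 RPKM (log2 −1.25 ± 0.06). Pou2af1, a coactivator of octamer factors best known in B cells, went from 14.4, 12.7 and 15.8 RPKM to 5.88, 5.96 and 5.97 RPKM, and Il1r2, a decoy receptor of IL-1, from between 2.28 and 2.66 RPKM to between 0.354 and 0.927 RPKM. Tal2, a basic helix-loop-helix factor, was at 2.08, 2.42 and 1.21 RPKM in control and at or below 0.131 RPKM in every IL-4 column. By the ratio of mean RPKM Tal2 fell 18.3-fold and Nrn1 5.04-fold. Tal2 reached the mean of 1 RPKM only through its control columns, and its ratio rests on IL-4 values near 0, so its size is uncertain. It was too low to be tested beside TGF-β or in WT cells.

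The same question could be put to 6 other KO libraries, in which IL-4 was added to TGF-β. They share replicate numbers but no library with the first comparison, and their columns, 14, 18 and 22 for TGF-β and 16, 20 and 24 for TGF-β + IL-4, rest on the same inferred order. limma called 114 genes higher and 57 lower, 1.77% of 9638 tested (1.18% higher, 0.591% lower), and 0 with the columns read by their headings, where 521 had an unadjusted p under 0.05. Without replicate 1 only 16 genes were higher and 5 lower, and without replicate 3 the counts were 18 and 6.

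Of the 144 genes higher with IL-4 alone, 142 were tested beside TGF-β, and all 142 had a positive log2 fold change. The change was also called there for 102, which is 70.8% of the 144 and 89.5% of the 114. Of the 97 genes lower with IL-4 alone, 93 of 95 tested were also negative and 49 were called, which is 50.5% of the 97 and 86% of the 57. The 2 of opposite sign are overlapping gene models of 1 multigene family, Gm3417+Gm3448 and Gm3417+Gm3448+Tcte3, whose reads cannot be assigned with certainty. The median over the higher genes was 0.93 beside TGF-β and 0.91 without it, and over the lower genes −0.67 beside TGF-β and −0.75 without it.

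Gata3, Csf1 and Nrn1 had nearly the same levels in both pairs of cultures, while Foxp3, Il9 and Ccr8 did not. Mean Foxp3 was 4.21 RPKM with TGF-β and 1.66 RPKM with TGF-β + IL-4, against 1.43 RPKM in control and 0.611 RPKM with IL-4. Mean Il9 was 1.85 RPKM in both cultures with TGF-β, against 0.369 RPKM in control and 0.872 RPKM with IL-4. Gata3 had 7.09, 9.09 and 8.6 RPKM with TGF-β and 59.0, 72.0 and 77.3 RPKM with TGF-β + IL-4 (log2 2.92, limma adjusted p = 1.05e-05). Csf1 had 1.33, 1.31 and 1.15 RPKM with TGF-β and 18.4, 17.5 and 18.2 RPKM with both, and Nrn1 had 59.9, 56.9 and 63.3 RPKM against 12.1, 12.4 and 11.5 RPKM. Ccr8 began from a higher level with TGF-β, at 13.4, 16.2 and 15.4 RPKM, and reached 35.2, 37.6 and 42.6 RPKM with both cytokines, so its change was 1.30 there and 2.16 without TGF-β. Replicate 2 of the TGF-β + IL-4 columns stood apart for Il4ra, at 131 RPKM against 86.1 and 97.4 RPKM, and for Gzma, at 73.8 RPKM against 31.0 and 36.2 RPKM. Il9 did not pass when IL-4 was added to TGF-β in KO cells, with 2.33, 2.3 and 0.936 RPKM with TGF-β and 1.38, 2.72 and 1.46 RPKM with TGF-β + IL-4 (log2 0.01, limma adjusted p = 0.994).

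**Figure D5:**
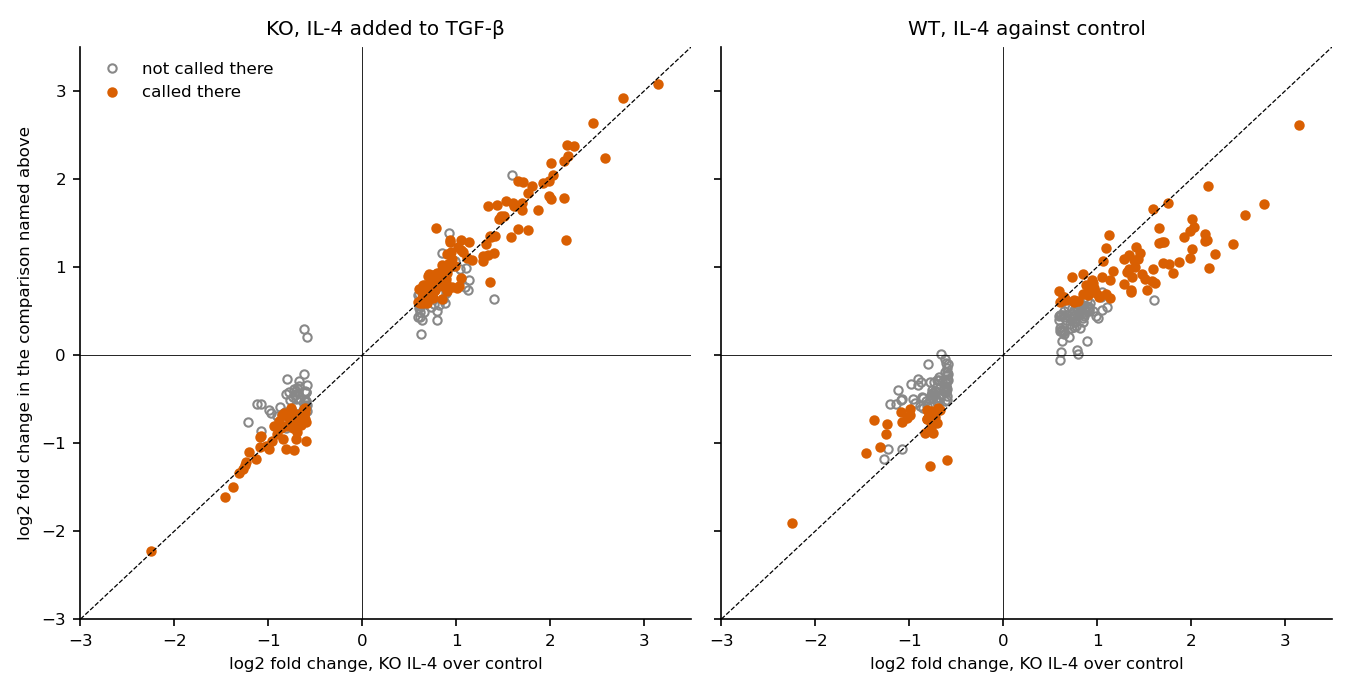
The log2 fold changes of genes called with IL-4 in KO cells (x axis) are set against the change when IL-4 was added to TGF-β in KO cells (left) and the change with IL-4 in WT cells (right), with called genes filled and equality as a dashed line. Beside TGF-β 142 of 142 genes called higher stay positive, and in WT 134 of 142 have a smaller change than in KO.

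IL-4 in WT cells served as the reference for the KO response. limma called 90 genes higher and 35 lower in WT, 1.29% of 9680, from columns that the read counts had placed for 2 of the 3 libraries of each culture. Of the 144 genes called higher in KO, 141 of 142 tested were positive in WT and 75 were called there, but the median was 0.65 in WT beside 0.91 in KO and the change was smaller in 134 genes. Of the 97 called lower, 93 of 94 were negative in WT and 26 were called, with a median of −0.49. Among these the change was smaller in WT in 88 of 94. With IL-4 added to TGF-β in KO cells, the change was smaller in 72 of 142 genes called higher and in 67 of 95 called lower. The genes had been chosen on the KO values, which by itself favours larger changes in that comparison. How much of the smaller change in WT comes from this choice was not tested. The difference was therefore tested gene by gene across all genes.

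The test of that difference called 4 of 9668 genes (0.0414%), all with a larger rise in KO, namely Gata3, Ralgds, Slc2a6 and Socs1. Tamoxifen against oil, where used as the study describes, cannot be told apart from loss of the receptor in this test. For Gata3 the change was 2.78 in KO and 1.72 in WT, a difference of 1.06 ± 0.12 (limma adjusted p = 0.00326). WT control cells held more Gata3 than KO control cells, with 21.7, 19.3 and 22.5 RPKM, while WT IL-4 cells, with 72.3, 68.4 and 74.8 RPKM, overlapped KO IL-4 cells. Socs1 had the smallest p, with a difference of 0.80 ± 0.07 (limma adjusted p = 8.17e-04), and WT levels of 137, 131 and 135 RPKM in control and 250, 232 and 230 RPKM with IL-4, above KO in both cultures.

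Slc2a6 followed Gata3, with WT control at 12.1, 12.6 and 11.0 RPKM, all above KO control, and WT IL-4 at 26.0, 23.6 and 24.5 RPKM, within the KO IL-4 range. Ralgds differed in the other culture, since WT IL-4 cells had 9.39, 8.25 and 8.74 RPKM and KO IL-4 cells 16.3, 16.4 and 20.0 RPKM, while the controls were close, at between 2.87 and 3.18 RPKM in WT and between 2.05 and 2.75 RPKM in KO. With the libraries of any 1 replicate number left out the limma test of the difference called 0 genes, with between 409 and 867 at an unadjusted p under 0.05, and with the columns read by their headings it called 0, with 103 at such a p. For Il4ra, Ccr8 and Foxp3 the difference between genotypes did not pass, with limma adjusted p = 0.0256, 0.032 and 0.0344.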

How the data were processed

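RNA was measured by Smart-seq2 RNA-seq and open chromatin by DNase-seq in KO and WT CD4+ T cells. Bowtie2 was used by the authors for alignment to mm9, and low-quality and redundant reads were dropped. They deposited RPKM for 24089 genes, computed with edgeR and normalized to gene length and library, and MACS2 peak lists per library whose fold enrichment (a ratio) over background was used as given by the authors. Tool versions are not given in the sources used here. 0 value columns were left out. RPKM keep no totals. From the steps between low values, the 6 columns had relative depths between 0.6 and 1.02 of the first column, and total read numbers are unknown.

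Columns were assigned by library-number order, with headings as an alternative. For matched WT libraries at least 99.8% of genes agreed in being at 0 or not, and at most 85.8% for the next column. Xist was between 0.946 and 2.14 RPKM and Ddx3y, Eif2s3y, Kdm5d and Uty at or below 0.027 RPKM in all 12 KO columns, which separated no columns.

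Genes whose mean over the fitted columns reached 1 RPKM were tested on log2(RPKM + 1), which understates changes of low genes, with limma 3.58.1 in R 4.3.3 (trend), in a fit of only the compared groups. Called genes had a change of more than 1.5-fold and a p, adjusted by Benjamini-Hochberg, under 0.01, as in the study. Its edgeR test needs counts and was not repeated on RPKM. Named genes were the 15 largest rises and falls, called members of the lists, and 9 genes of the pathway. The members and lists were chosen with earlier results of these data known. No source used here ties a replicate number to 1 mouse, so p-values measure only the spread between these libraries, which may be technical. The fit was tested on simulated data. Figures were drawn with Python 3.11.15 and matplotlib 3.10.9.

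Alternatives were a pseudocount of 0.1, no filter, a minimum of 5 RPKM, median-ratio and quantile scaling, all cultures of the genotypes in one fit, no trend, an adjusted p under 0.05, no fold minimum, a replicate block (also, added after seeing the data, with all cultures), and leaving out each replicate number or library. The WT DNase-seq lists were not used. Some genes are not reported here.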

Additional observations from a re-analysis of the deposited data

Results flagged for a closer look

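The response to IL-4 differed between genotypes, by limma's test of the difference itself, for 4 genes, each with a larger rise in the KO columns. The difference (KO minus WT, log2) was 1.06 ± 0.12 for Gata3 (SE, adjusted p = 0.00326), 1.19 ± 0.13 for Ralgds (adjusted p = 0.00326), 1.20 ± 0.15 for Slc2a6 (adjusted p = 0.00532) and 0.80 ± 0.07 for Socs1 (adjusted p = 8.17e-04). The KO column order behind all 4 is inferred. Where the mice described by the study were used, KO cells also differed from WT cells in tamoxifen against oil. WT and KO libraries also have separate runs of library numbers. The deletion cannot be told apart from either. The groups of 3 columns are too small for a test of single outlying columns.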

How the results depend on the processing

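Read by their headings, the columns gave 0 calls in either direction in each of the 3 comparisons, and the log2 change then had the opposite sign for Ms4a4c (0.34), Evi2a (0.00), Phf11b (0.16), Cd27 (0.13), Jund (−0.05), Gbp2 (0.27), Stat6 (0.07) and E2f8 (−0.02). Of 238 called genes with a value, 216 kept their sign by heading, with a median size of 0.29 beside 0.84. By position, columns 19 and 20 of those headed KO IL-4 had IL-4, as had column 15 of those headed KO control. A smaller change of the same sign thus follows from the shared columns and is no agreement of the 2 readings. For IL-4 against control, a minimum of 5 RPKM gave 91 genes higher and 62 lower (fewer genes tested), no filter 44 lower and no fold minimum 149 lower. Leaving out a replicate number or library gave 89 to 153 higher and 32 to 123 lower. For IL-4 beside TGF-β, no filter gave 27 lower and the replicate block 37 lower, and leaving out a replicate number or library gave 16 to 126 higher and 5 to 91 lower. The difference between genotypes had 1 gene without a filter, 11 with all cultures in one fit, 15 at an adjusted p under 0.05, 18 with the replicate block and all cultures in one fit, and 0 without any 1 replicate number. The cause of these shifts was not tested, apart from the fewer genes or samples named. All other counts stayed within 1.5 times. Of 63 named calls for IL-4 against control, 17 were lost without a low filter, Ccl17, Igfbp7, Ctla4 and Csf2 among them, 1 with median-ratio scaling (Tnf), 2 with quantile normalization (Tnf and Jund), 4 without the trend (Ccl5, Tnf, Cd27 and Jund) and 2 of the 62 tested with all cultures in one fit (Csf2 and Gbp2). Deviations of columns that share a replicate number correlated at 0.24, 0.01 and −0.04, so the numbers were not taken to pair the libraries. With the replicate block IL-4 against control had 143 genes higher and 89 lower, and 3 of 63 named calls were not made, Foxp3 (limma adjusted p = 0.0164) and Ctla4 (limma adjusted p = 0.0163) among them. Apart from the headings, no alternative reversed a named call. Total read numbers are unknown, and the effect of depth was not tested. The inferred order of the KO columns is a limit on all results.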
